A study of Mus musculus with 8 samples.

Results

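Livers of mice that lack Btg2 were compared between fasted adults and fetuses, gene by gene, on 4 of the 8 microarrays of the series. The labels call the gene by its older name, TIS21. The adult group (labelled KO Ad) was liver of 10 week old knockout males fasted for 20 h. The fetal group (KO Fetal) was liver of knockout fetuses at embryonic day 13.5, pooled over more than 3 fetuses of a womb and over both sexes, with no fasting named for the fetuses or their mothers. Both groups carried the same knockout on the C57BL/6J background. The sources used here give neither the deleted part of Btg2 nor the number of adult mice behind the RNA. The corresponding wild-type samples (WT Ad and WT Fetal, 4 further arrays) share the strain, ages, fasting and pooling. They were used only for the error estimate and for the comparison of stage differences between genotypes.

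Each group was 1 RNA sample measured on 2 arrays as a technical duplicate. Errors and p-values below therefore describe array error and compare 2 RNA samples, not 2 populations of mice. Age, fasting, sex, pooling and the column of the slide changed together between the 2 groups and cannot be told apart.

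At embryonic day 13.5 the mouse liver is the main site of blood formation, and red cell precursors make up much of the organ, beside hepatoblasts that still divide. The adult liver is made mostly of resting hepatocytes that secrete plasma proteins, make urea and bile acids, clear foreign compounds and, in fasting, make glucose and ketone bodies. Btg2 is an antiproliferative protein related to Tob1; proteins of this kind bind CCR4-NOT, the complex that shortens the tails of mRNAs. In bulk RNA such as this, fewer cells of a type and less RNA per cell cannot be told apart.

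A level below is the log2 processed signal of a probe minus the 75th percentile of its array, so that 0 marks a probe as bright as that percentile. A difference is the adult mean minus the fetal mean on that scale, given with the standard error (SE) of limma's fit and n = 2 arrays a group. Probes had to be well above background, by the scanner software's flag, on both arrays of at least 1 knockout group. Of 55681 probes, 27315 passed, and 18211 of these had a gene symbol. They covered 14096 genes of the 20280 with a named probe, each represented by its brightest probe. A gene was called when its adjusted p was under 0.05 and its difference at least 2-fold. Where a gene was well above background on neither array of a group, its change is given as "at least N-fold". The brighter mean was then set against the dimmest level that the other group's arrays still measured.

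The targeted gene was dark in both knockout samples. The Btg2 probe read 6.26 and 8.02 signal units on the adult knockout arrays and 4.54 and 5.14 on the fetal ones, none of them well above background. Whether the probe lies in the deleted part is not known here. The wild-type arrays read 149 and 158 in the adult and 2071 and 2079.9 in the fetus. Btg2 itself was thus not among the genes tested. The 75th percentile of the signal was 171 and 169.6 units on the adult knockout arrays against 279 and 278 on the fetal ones. The share of probes well above background was 42.3% and 38.7% against 49.5% and 48.7%. Duplicate arrays correlated over the 14096 genes at r of 0.996 in the adult and 0.998 in the fetus. Their difference had an SD of 0.28 and 0.20 on the log2 scale, respectively, while adult and fetal means correlated at r of 0.669 over the same genes, which are not independent replicates. The dimmest level measured above background was higher on the adult arrays, at -2.91 and -2.53, than on the fetal arrays, at -4.00 and -3.97.

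Adult and fetal knockout liver differed at 7631 of the 14096 genes, or 54.1% of those tested. Of these, 3643 were higher in the adult (25.8% of all tested) and 3988 higher in the fetus (28.3%). The median over all genes was -0.05. Well above background on all 4 arrays were 11132 genes, while 360 were measured in the adult and on neither fetal array, and 1965 in the fetus and on neither adult array. The median over all genes moved to -0.52, -0.21, -0.31, 0.05 and -0.20 under median scaling, quantile normalization, scaling on detected probes, normexp background correction and the deposited value table. With it the share of calls that were higher in the adult moved from 47.7% to 32.9%, 42.6%, 39.2%, 50.8% and 42.5%. Differences of about 2-fold thus depend on the scaling, whereas those of the genes named below are mostly far larger. Where a gene not measured in 1 group also had to reach a bound of 2-fold, 3642 genes were called higher in the adult and 3343 higher in the fetus.

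**Figure D1:**
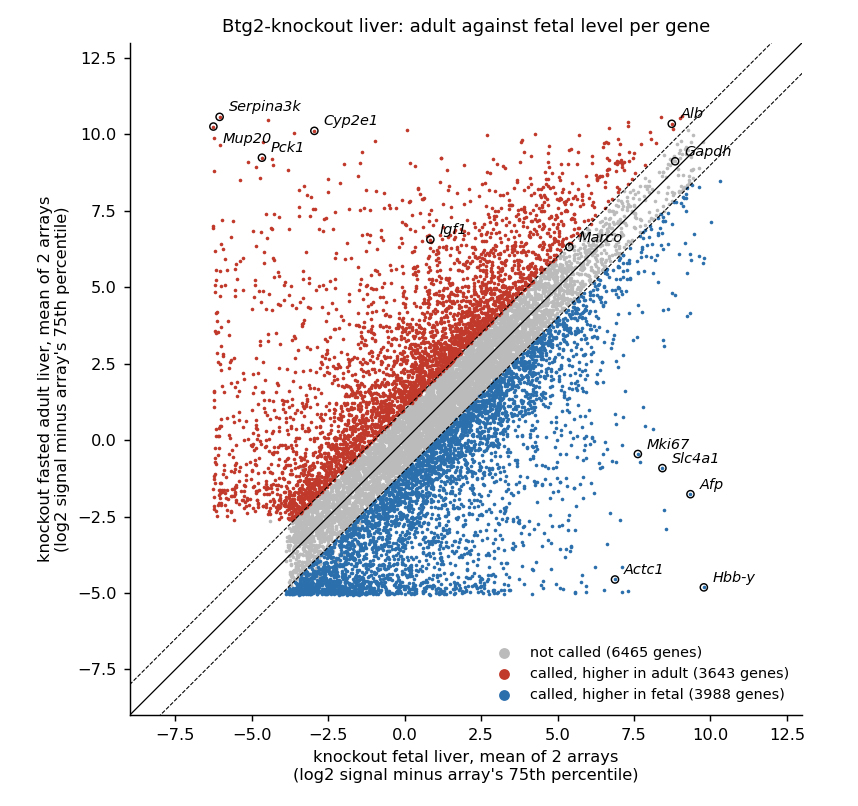
Mean level of each of the 14096 genes in knockout fetal liver (x axis) and knockout fasted adult liver (y axis), both as log2 signal minus the array's 75th percentile, with 2 arrays a group. The solid line marks equal levels, the dashed lines a 2-fold difference, and colours the 3643 genes called higher in the adult and the 3988 called higher in the fetus, with dim genes drawn at their measured signal.

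Among genes above background on all 4 arrays, the largest difference was that of Cyp2e1, a cytochrome P450 that oxidises ethanol and acetone. Its level was 10.12 and 10.11 on the adult arrays and -2.95 and -2.96 on the fetal arrays, a difference of 13.07 ± 0.03 (SE, limma adjusted p = 3.9e-13). The arrays of the stages lay far apart. Next came Cyp2a4 (11.65 ± 0.14), a steroid hydroxylase, and Ces1c (11.61 ± 0.15), a plasma carboxylesterase. Tat, which starts tyrosine breakdown, differed by 11.23 ± 0.08. The other members of the upper 12 were Inmt, an indole methyltransferase (11.07), Cyp3a11 (11.03), Cyp2c38 (10.99), the gluconeogenic enzyme Fbp1 (10.82), Cyp2c37 (10.78), the lipoprotein component Apoc3 (10.74), Cyp2d9 (10.65) and Lrg1, a secreted glycoprotein (10.57). For Cyp2c38 and Cyp2c37 a second probe gave smaller differences, of 3.97 and 6.14. Cyp2, Cyp3, Cyp4a and carboxylesterase genes have near-identical relatives, so that a probe may read more than the gene it is named for.

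On the fetal side the largest measured difference was that of Afp, the fetal counterpart of albumin. Afp read 9.32 and 9.37 in the fetus against -1.78 and -1.76 in the adult, a difference of -11.11 ± 0.03 (limma adjusted p = 1.5e-12). Slc4a1, the anion exchanger of the red cell membrane, followed with 8.41 and 8.44 against -0.97 and -0.86 (-9.34 ± 0.09). The list went on with genes of chromatin and cell division: the linker histone H1f5 (-9.08), the proliferation marker Mki67 (-8.08), the histone H2ac4 (-7.75) and Uhrf1, which guides maintenance DNA methylation (-7.70, and -3.57 by another probe). Red cell and blood genes were Cd24a (-8.41), Tal1, a transcription factor of blood formation (-7.52), and the carbonic anhydrase Car2 (-7.42). Phgdh, the first enzyme of serine synthesis, differed by -7.89, Unc93a2 by -7.62 and the imprinted transcription factor Plagl1 by -7.46. Plagl1 had 4 probes, and 1 of them gave only -0.62.

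Some genes were above background in 1 stage alone. Serpina3k, an abundant plasma serpin, read 10.58 and 10.57 in the adult and was dim on both fetal arrays, at least a 24118-fold difference. The major urinary proteins Mup19, Mup20, Mup5 and Mup4 were at least 22262.5, 19357, 14903 and 12749.7 times higher in the adult. The proteinase inhibitor Mug1 reached at least 13655-fold, Pck1, the control point of gluconeogenesis, at least 9554-fold, and the carboxylesterase Ces3a at least 9301-fold. In the fetus the embryonic globins were higher, Hbb-y by at least 5810.2-fold, Hbb-bh1 by at least 2437-fold and Hba-x by at least 602-fold. The red cell antigen Rhd (at least 1052.5-fold), the cysteine protease inhibitors Stfa1 (at least 905-fold) and Cstdc5 (at least 903-fold), the cell cycle regulator Rgcc (at least 778-fold) and the cardiac actin Actc1 (at least 775-fold) completed this group. The Mup, globin and Stfa genes have near-identical copies, and their probes may read several of them.

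**Figure D2:**
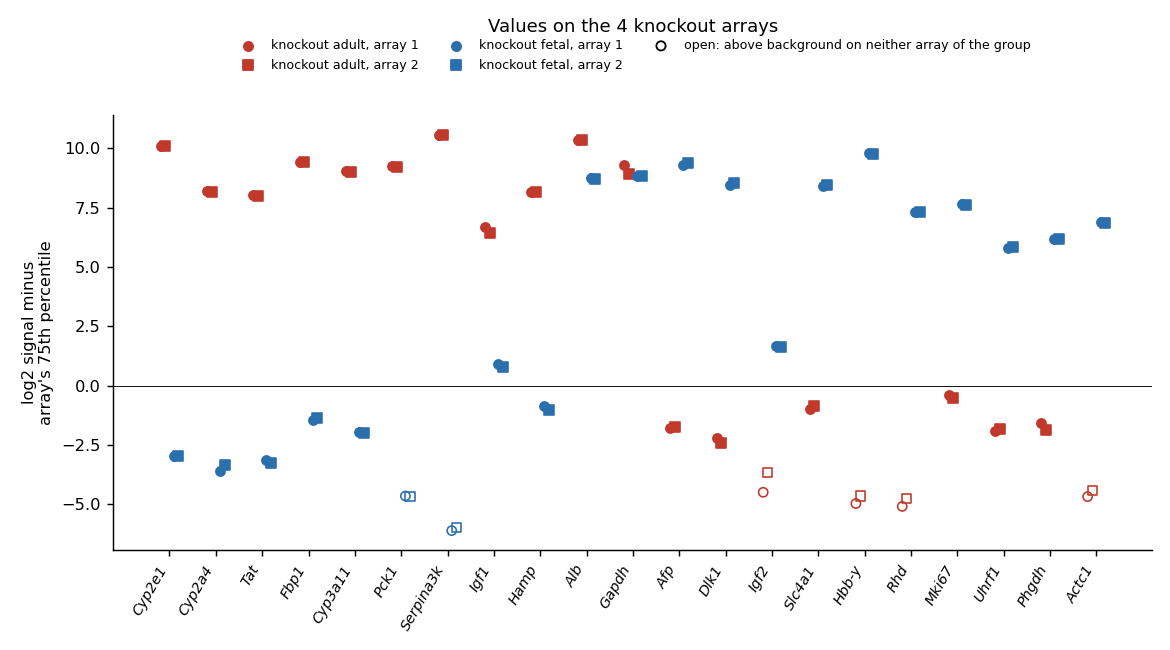
Levels of 21 genes on each of the 4 knockout arrays (log2 signal minus the array's 75th percentile). Red marks the adult arrays, blue the fetal arrays, circles array 1 and squares array 2, and open symbols a group in which the gene was above background on neither array. Duplicates nearly coincide, and Cyp2e1 and Afp lie more than 11 log2 units apart between stages while the 4 values of Gapdh span less than 0.5.

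Genes of the mature hepatocyte were higher in the adult throughout, although their size of change differed widely. Of 28 members tested, 26 were called higher in the adult and none in the fetus, with a median difference of 8.20. Behind them stood the drug-metabolizing cytochromes, with 30 of 31 higher (median 7.69), among them Cyp2c50 at least 5984-fold and Cyp2f2 by 12.65, with 1 fetal array above background. The only cytochrome higher in the fetus was Cyp2s1 (-1.32), a family member of extrahepatic epithelia. Albumin was already abundant in the fetus: Alb read 10.35 and 10.35 in the adult against 8.76 and 8.71, a difference of only 1.61 ± 0.04. Ttr, the thyroxine carrier, differed by 2.94. Trf, the iron carrier, missed the 2-fold limit at 0.86 (2.10 by another probe). Slc10a1, the bile acid importer, gave 0.16 by its brightest probe and 9.55 by another, so that its change is not settled by these arrays. Of 38 conjugation enzymes, which attach glucuronate, sulphate or glutathione, 37 were higher in the adult (median 4.86), among them Ugt2b1 (at least 1136-fold) and Ugt2a3 (at least 984-fold). The exception was Gstm5 (-2.48).

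The promoters of the hepatocyte genes were read for 2 short motifs, in windows of 250 bases before the start of each gene as RefSeq gives it (build GRCm38.p6), on both strands. GTTAAT is part of the site of HNF1 and CAAAGTCCA a site of HNF4, both liver transcription factors. GTTAAT stood in 14 of the 71 windows of mature hepatocyte, coagulation and cytochrome genes (19.7%) and in 6.52% of all 27025 windows. CAAAGTCCA stood in 8 of the 71 (11.3%) and in 0.381% of all. A match is only a run of letters and not a bound site. Shown are Pck1 (chr2:173152823-173153072, plus strand) and Cyp2a4 (chr7:26306942-26307191, plus strand), members with a large difference and a match, with GTTAAT or its complement in capitals.
Pck1: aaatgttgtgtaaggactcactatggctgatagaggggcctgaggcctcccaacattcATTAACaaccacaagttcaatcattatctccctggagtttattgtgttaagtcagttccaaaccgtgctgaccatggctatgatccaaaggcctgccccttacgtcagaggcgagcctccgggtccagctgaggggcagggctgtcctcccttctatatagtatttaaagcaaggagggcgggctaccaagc
Cyp2a4: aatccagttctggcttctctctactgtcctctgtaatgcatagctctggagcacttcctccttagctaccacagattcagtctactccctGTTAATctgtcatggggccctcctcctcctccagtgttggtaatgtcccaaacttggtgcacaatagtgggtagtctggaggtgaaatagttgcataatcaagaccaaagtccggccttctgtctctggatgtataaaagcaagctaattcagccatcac

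Nitrogen metabolism followed the same direction. Of 14 genes of the urea cycle and ammonia handling, 13 were higher in the adult (median 4.50). Cps1, which takes up ammonia, read 7.35 and 7.43 against dim fetal values, at least a 2656-fold difference. Arg1, which releases urea, differed by 8.74 and Otc, the step that makes citrulline, by 5.08, with 6.91 and 6.93 against 1.83 and 1.84. The ammonium channel Rhbg did not pass the call (-0.22). Of 54 enzymes of amino acid breakdown, 53 were higher in the adult (median 4.22), among them Tat, given above, Tdo2, which opens the tryptophan ring (at least 1952-fold), and Sds, which deaminates serine (at least 1812-fold). Bcat2, the branched-chain aminotransferase of other tissues, was higher in the fetus (-1.03).

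Sugar metabolism split between isozymes. Of 27 genes of gluconeogenesis and glycogen, 21 were higher in the adult and 3 in the fetus (median 3.14), with G6pc, the last step of glucose release, at least 1766-fold higher in the adult. Those higher in the fetus were Gyg (-2.81), Pgm2 (at least 4.85-fold) and Pck2, whose bound of 1.35-fold is below the call's limit. Of 33 glycolytic genes, 6 were higher in the adult and 14 in the fetus (median -0.26). The glucose carrier Slc2a2 of hepatocytes differed by 4.13. The hexokinase Hk1, which serves most other tissues, read 0.23 and 0.12 against 5.11 and 5.09 (-4.93 ± 0.04, and -2.43 by another probe). With Hk1 went Hk2 (-3.26), the pyruvate kinase Pkm (-3.57), the red cell glucose carrier Slc2a1 (-4.36) and the lactate exporter Slc16a3 (-6.64). The shared enzymes Gapdh (0.28), Ldha (0.22) and Tpi1 (0.22) and the liver pyruvate kinase Pklr (-0.26) were not called.

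Lipid genes were mostly higher in the fasted adult. Of 53 genes of fatty acid oxidation and PPAR-alpha targets, 49 were higher in the adult and none in the fetus (median 3.22). The omega-oxidation enzyme Cyp4a14 was at least 2052-fold higher. Cpt1a, which admits fatty acids to mitochondria, differed by 4.88, and Ppara, the receptor that drives the fasting programme, by 5.06. Members that missed the call were the acyl-CoA thioesterases Acot2 (-0.01), Acot3 (-0.06), Acot4 (0.81) and Acot8 (0.76). Of 37 genes of lipogenesis and lipid droplets, 30 were higher in the adult and 1 in the fetus (median 2.76), among them Thrsp (at least 1814-fold), the droplet protein Plin5 (9.86) and Elovl3 (at least 724-fold). The desaturases parted: Scd1 differed by 5.79 and Scd2, at 0.16 and 0.10 in the adult against 5.93 and 5.94 in the fetus, by -5.81 ± 0.04.

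Cholesterol synthesis and uptake showed no common direction. Of 34 genes, 15 were higher in the adult and 5 in the fetus, and the median of 0.27 turned to -0.21 under the lowest of the other scalings. The sterol exporter Abcg5 was higher in the adult (8.43), and Sqle, the squalene oxidase (-2.06), was among those higher in the fetus. Bile acid genes were higher in the adult in 27 of 29 cases (median 5.34). The anion carriers Slc22a7 (at least 472-fold), Slco1a1 (at least 402-fold) and Slco1b2 (10.18) and the bile salt pump Abcb11 (6.48) were among them, as was Cyp7a1, the first enzyme of the pathway, at least 38.3-fold. Of 19 genes of lipoproteins, 17 were higher in the adult (median 3.74). Apoc3 stood at 10.74, Apon at least 948-fold and Apoa1 at 3.74 (8.28 and 8.27 against 4.54 and 4.54), while Lpl, the lipase of muscle and fat, was higher in the fetus (-1.82).

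Secreted plasma proteins were higher in the adult as groups. All 27 complement genes tested were called (median 4.72), with Mbl2, the mannose-binding lectin, at 9.45 and C9, the pore former, at least 360.2-fold. Of 29 coagulation genes, 25 were higher in the adult and 2 in the fetus (median 3.17). Hrg differed by 11.08, with 1 fetal array above background, and F9 by 6.52. The vessel wall genes Tfpi (-2.63, and 0.04 by another probe) and Vwf (-1.23) were called higher in the fetus. Of 29 acute-phase genes, 25 were higher in the adult and 2 in the fetus (median 3.74), with Orm2 at least 2324-fold higher in the adult. The 2 were Lcn2 (-1.35) and A2m, whose bound was only 1.38-fold. The 10 tested major urinary protein genes of 21 listed had a median of 14.07, and 8 of them were above background on neither fetal array. They are pheromone carriers that adult males make in quantity. The adult sample was male and the fetal pool of both sexes, and sex cannot be told apart from age here. Of 26 serpins, 18 were higher in the adult and 4 in the fetus (median 2.09). Serpinh1, the collagen chaperone, was among the latter (-3.36).

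Liver transcription factors were higher in the adult in 36 of 41 cases (median 2.84). Nr1i3, the nuclear receptor CAR, read 5.12 and 5.13 against -3.17 and -3.11, a difference of 8.26 ± 0.06. Nr0b2 was at least 46.7-fold higher. Hnf4a, which controls much of the hepatocyte programme, read 7.69 and 7.69 against 4.31 and 4.29 (3.39 ± 0.03). Thra (-1.75) and Gata6 (-1.01) were higher in the fetus, and Gata4 was not called (-0.24). The circadian clock genes were called higher in the adult in 14 of 16 cases (median 3.06), with Dbp at 5.80 and Ciart at least 25.7-fold. Arntl (0.15) and Csnk1e (-0.93) were not called.

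The fetal liver genes proper were few but large. Of 15 hepatoblast and fetal liver genes, 12 were higher in the fetus and 2 in the adult (median -5.72). After Afp came Dlk1, a surface protein of hepatoblasts, at 8.46 and 8.52 against -2.20 and -2.40, with 1 adult array above background (-10.79 ± 0.07), and Mest (-7.05). Gpc3 (at least 94.2-fold), the let-7 antagonist Lin28b (at least 49.1-fold) and the RNA-binding Igf2bp1 (at least 32.3-fold) were above background in the fetus alone. Ahsg (1.78) and Spint2 (2.77) were higher in the adult, although both were listed as fetal. Of 26 imprinted growth genes, 19 were higher in the fetus and 2 in the adult (median -3.01). Grb10 (at least 36.3-fold), Meg3 (-6.53), Cdkn1c (-6.61) and Mirg (at least 98.0-fold) belonged to the former, Slc38a4 (3.87) and Dcn (1.06) to the latter. Among 24 genes of growth hormone and IGF signalling, 8 were higher in the adult and 6 in the fetus. These shares are near those of all genes tested, 25.8% and 28.3%, so the list as a whole does not stand out. Igf1 read 6.69 and 6.44 in the adult against 0.91 and 0.77 (5.72 ± 0.08), whereas Igf2 was at least 20.7-fold higher in the fetus. The receptor genes also parted, with Ghr at 3.88 and Igf1r at -2.83.

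**Figure D3:**
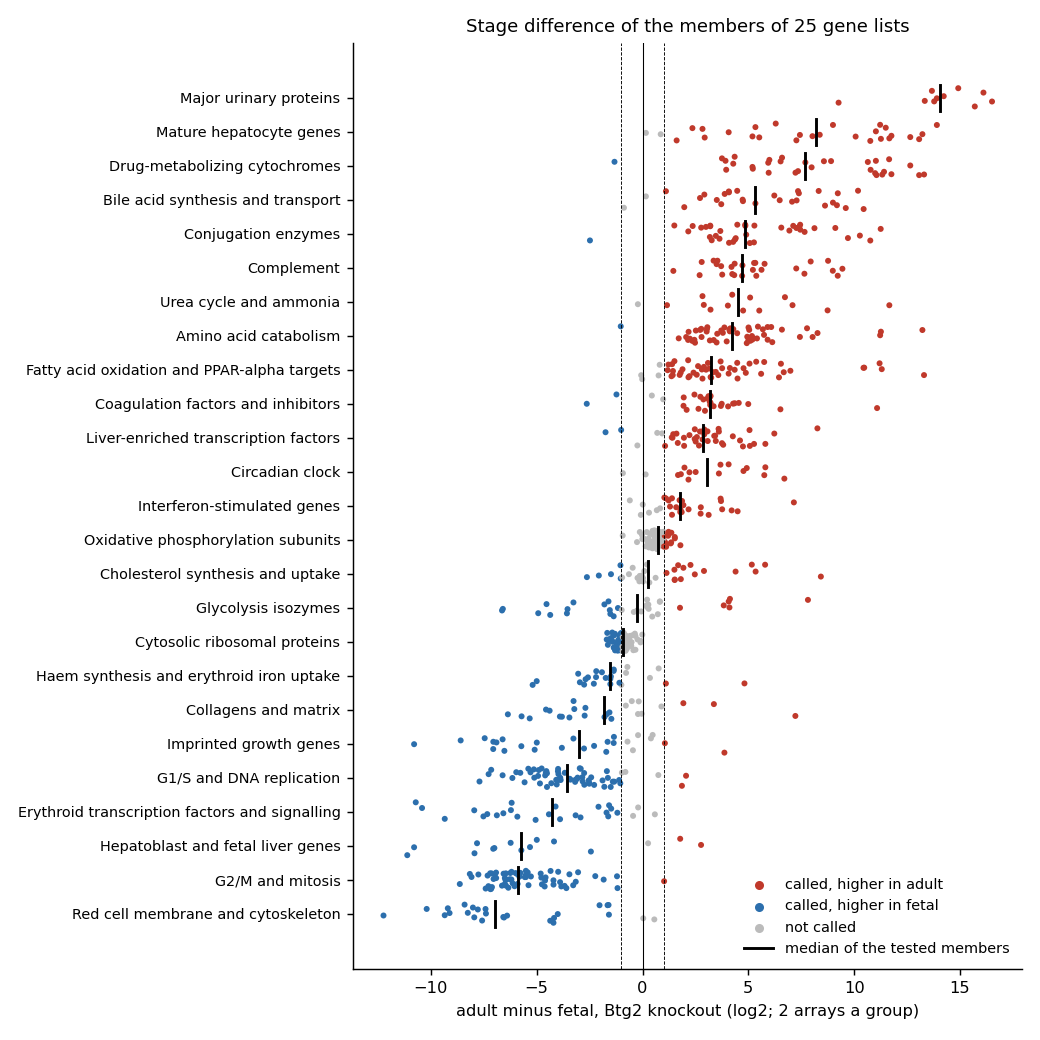
Adult minus fetal difference (log2, 2 arrays a group) of each tested member of 25 gene lists, with the median as a black bar and dashed lines at a 2-fold difference. Red and blue points passed the call as higher in the adult or in the fetus, dim members are drawn at their measured signal, and the medians run from 14.07 for the major urinary proteins to -6.99 for the red cell membrane.

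Red cell genes were higher in the fetus at nearly every step of the lineage. Of 26 erythroid transcription and signalling genes, 23 were called higher in the fetus and none in the adult (median -4.26). Gata1, the master regulator of the lineage, read 5.93 and 5.94 in the fetus and was dim in the adult, at least a 403-fold difference. Nfe2 was at least 362-fold and Gfi1b at least 151-fold higher, and Klf1 differed by -5.91. Of 26 genes of the red cell membrane and skeleton, 24 were higher in the fetus (median -6.99), with Rhd as above and Kel, a blood group protease, at least 364-fold. Car1 (0.04) and the water channel Aqp1 (0.56) were not called. Both lists hold genes that the adult arrays could not measure, 9 and 14 of them.

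The embryonic globins named above differed by more than the adult-type ones named here. Of 11 tested genes of the globin list, 9 were higher in the fetus and none in the adult (median -4.34). The list was written to include Ahsp, which is not itself a globin. The bounds of the embryonic globins are given above. The adult-type Hba-a1 read 10.32 and 10.32 in the fetus against 8.48 and 8.46 (-1.85 ± 0.05) and Hbb-bs 8.64 and 8.60 against 4.30 and 4.27 (-4.34 ± 0.04). The Hba-a2 probe gave 9.71 and 9.81 against 9.70 and 9.78, with no difference beyond the spread of the arrays (-0.02 ± 0.10, limma adjusted p = 0.85). Hba-a1 and Hba-a2 are near-identical, so their probes cannot be assigned to single genes. Of 25 genes of haem synthesis and erythroid iron uptake, 18 were higher in the fetus and 2 in the adult (median -1.52). The mitochondrial iron importer Slc25a37 differed by -5.19. Tfrc, the transferrin receptor, read 4.99 and 4.99 in the fetus against -0.03 and 0.01. The first enzyme of haem synthesis parted by isozyme: Alas2, of red cells, differed by -2.18 and Alas1, of all cells, by 4.82 (8.63 and 8.38 against 3.70 and 3.67). Systemic iron genes went the other way, with 13 of 20 higher in the adult and 2 in the fetus (median 2.52). Hamp, the hormone hepcidin, read 8.16 and 8.16 against -0.84 and -1.04 (9.10 ± 0.06).

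Promoter windows of globin, haem and red cell membrane genes were read for the GATA factor site AGATAA and for CCACACCC, a KLF1 site. AGATAA was in 8 of 43 windows (18.6%, against 10.3% of all) and CCACACCC in 1 of 43 (2.33%, against 3.19%). Rhd (chr4:134864286-134864535, plus strand) and Kel (chr6:41704326-41704575, minus strand) are shown as the members with the largest bound and a match, with AGATAA in capitals.
Rhd: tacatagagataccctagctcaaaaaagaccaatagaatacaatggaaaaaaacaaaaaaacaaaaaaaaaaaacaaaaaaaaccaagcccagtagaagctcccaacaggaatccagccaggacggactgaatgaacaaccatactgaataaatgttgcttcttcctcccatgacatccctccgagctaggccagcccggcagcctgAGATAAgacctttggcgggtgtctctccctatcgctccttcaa
Kel: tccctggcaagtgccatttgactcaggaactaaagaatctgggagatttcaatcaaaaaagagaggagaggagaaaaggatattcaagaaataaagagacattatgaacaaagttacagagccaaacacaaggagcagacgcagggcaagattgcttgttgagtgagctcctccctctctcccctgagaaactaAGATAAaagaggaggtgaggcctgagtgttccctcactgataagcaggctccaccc

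Granulocyte, megakaryocyte and mast cell markers were also mostly higher in the fetus. Of 13 neutrophil and granulocyte markers, 10 were higher in the fetus and 1, Cebpe (1.55), in the adult (median -4.59). The granule genes S100a8 (-7.10) and S100a9 (-6.70) were measured on all 4 arrays. Mpo differed by -10.03 ± 1.04, with adult arrays that disagreed (-5.20 and -1.63). Of 13 megakaryocyte and platelet markers, 12 were higher in the fetus (median -4.23), including Pf4 (6.11 and 6.12 against -0.04 and 0.18) and Treml1 (at least 66.4-fold). Of 7 listed mast cell and basophil markers 4 were tested, and all 4 were called higher in the fetus, Cpa3 by at least 7.95-fold. All 4 were above background on neither adult array. They entered the test through the fetal arrays alone, so their shared direction was set by the filter. Stem and progenitor markers were mixed, with 8 of 13 higher in the fetus and 3 in the adult, from Myb (at least 54.3-fold, fetal) to Ly6a (3.41, adult). The erythroid cell markers stood at 11 of 12 higher in the fetus (median -6.81), and Hemgn alone was higher in the adult (1.83).

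Cell division genes were nearly all higher in the fetus. Of 67 genes of G2/M and mitosis, 66 were higher in the fetus (median -5.90), and 29 of the 67 were above background on neither adult array. Mki67, a nuclear protein of dividing cells, read 7.65 and 7.60 in the fetus and -0.39 and -0.52 in the adult. Ccnb1, the mitotic cyclin, was at least 224-fold higher in the fetus, Sgo1 at least 124-fold and the topoisomerase Top2a at least 94.8-fold. Pttg1, the securin, was the exception at 1.02 ± 0.03, with another probe at 0.42. Among 62 G1/S and replication genes, 57 were higher in the fetus and 2 in the adult (median -3.56). The replicative helicase members Mcm6 (7.09 and 7.11 against -0.21 and -0.13) and Mcm5 differed by -7.27 and -7.15. Those higher in the adult were Mcm10 (1.86) and the cyclin kinase inhibitor Cdkn1a (2.06). Of 32 chromatin and DNA methylation genes, 22 were higher in the fetus and none in the adult (median -1.70), among them Dnmt1 (-4.06) and Dnmt3b (-3.42).

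Promoter windows of the division genes held the cell cycle motifs TTTGAA (the core of the CHR element) in 18 of 56 (32.1%, against 16.3% of all) and CCAAT in 39 of 56 (69.6%, against 34.5%). Among replication genes the E2F motifs TTTGGCGC and TTTCCCGC were in 4 and 6 of 51 windows (7.84% and 11.8%, against 0.437% and 0.929%). Mki67 (chr7:135716380-135716629, minus strand) and Ccnb1 (chr13:100786487-100786736, minus strand) are shown, the former with 2 copies of TTTGAA and 3 of CCAAT and the latter with 2 of CCAAT, in capitals on either strand.
Mki67: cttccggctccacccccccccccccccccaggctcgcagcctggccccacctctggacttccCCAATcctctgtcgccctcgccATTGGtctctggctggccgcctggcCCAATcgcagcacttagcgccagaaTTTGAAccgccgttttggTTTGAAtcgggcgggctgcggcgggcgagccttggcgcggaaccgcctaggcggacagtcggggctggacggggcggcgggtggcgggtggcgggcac
Ccnb1: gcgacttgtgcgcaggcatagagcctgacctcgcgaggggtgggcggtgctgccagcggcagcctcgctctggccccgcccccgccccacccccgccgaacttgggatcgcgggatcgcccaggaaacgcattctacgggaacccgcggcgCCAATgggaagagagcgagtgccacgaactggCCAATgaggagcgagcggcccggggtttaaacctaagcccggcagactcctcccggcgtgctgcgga

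Of 19 relatives and partners of Btg2 (BTG, TOB and CCR4-NOT genes), 12 did not pass the call. Higher in the adult were 3 (15.8%) and in the fetus 4 (21.1%), against 25.8% and 28.3% of all genes tested. Their median was -0.25, and the other scalings called 3 to 8 higher in the fetus. Tob1 read 3.03 and 3.04 against -0.05 and 0.07 (3.03 ± 0.07) and Tob2 differed by 1.27. Btg3 (-1.62) and Cnot9 (-1.56) were higher in the fetus, and Btg1 (0.95) and the deadenylases Cnot7 (-0.86) and Cnot8 (0.31) were not called. Of 24 p53 targets, of which Btg2 is another, 7 were higher in each stage (29.2%). This is near the shares of all genes tested, 25.8% and 28.3%. The other scalings called 3 to 9 p53 targets higher in the fetus. Fas (3.74) was higher in the adult and Phlda3 (-5.59) in the fetus.

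The bulk machinery of the cell differed by less than the tissue-specific groups. Of 76 ribosomal protein genes, 32 were higher in the fetus and none in the adult. Their median of -0.93 stayed between -1.41 and -0.92 in all alternatives. Rpl12 (-1.69) and Rpl22 (-1.67, and -0.33 by another probe) were among them. Of 64 subunits of oxidative phosphorylation, 16 were higher in the adult and none in the fetus, with a median of 0.72 that lay between 0.24 and 0.73 over the alternatives. This share is near the 25.8% of all genes called higher in the adult. Ndufa1 (1.79) and Sdha (1.53) were among them. Over the alternatives the calls in these lists ranged from 30 to 66 and from 3 to 18, since many members lie near the 2-fold limit.

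Amino acid supply and stress genes split within lists. Of 27 genes of the integrated stress and unfolded protein responses, 12 were higher in the adult (44.4%) and 8 in the fetus (29.6%). Higher in the fetus were the serine synthesis enzymes Psat1 (at least 283-fold, with another probe at -4.45) and Phgdh (-7.89), the asparagine synthetase Asns (-6.93), the folate enzyme Mthfd2 (at least 26.7-fold) and the amino acid transporter Slc7a5 (at least 29.2-fold), among others. Adult ones included the endoplasmic reticulum gene Herpud1 (4.31) and Creb3l3 (4.23). Of 20 glucocorticoid-responsive genes, 13 were higher in the adult and 3 in the fetus, among the latter the metallothioneins Mt2 (-3.78) and Mt1 (-2.90). Immediate early genes (4 adult, 7 fetal of 19), heat shock chaperones (6 and 4 of 22) and NRF2 targets (12 and 5 of 25) had medians of -0.23, 0.27 and 0.73. The adult and fetal shares were 21.1% and 36.8% for immediate early genes, 27.3% and 18.2% for chaperones and 48.0% and 20.0% for NRF2 targets. Of all genes tested, 25.8% and 28.3% were called. Under the other scalings 1 to 3 immediate early genes were called adult and 3 to 9 fetal, and 2 to 4 chaperones adult. Hspb8 (5.53), Zfp36 (at least 7.83-fold) and Gsta2 (at least 947-fold) were higher in the adult, and Ier3 (at least 10.0-fold), Cryab (-2.30) and G6pdx (-3.10) in the fetus. The chaperone median turned to -0.21 under the lowest of the other scalings.

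Interferon-stimulated, MHC class II and macrophage genes were mostly higher in the adult. Of 29 interferon-stimulated genes, 23 were higher there and none in the fetus (median 1.78), with the GTPase Iigp1 at 7.15. Of 8 MHC class II genes, 6 were higher in the adult (median 3.12), with Cd74 at 3.56 and 3.54 against -1.41 and -1.43 (4.97 ± 0.08). Chemokines and their receptors were split, 12 adult and 11 fetal of 25. Of the 11, only 5 reached a bound of 2-fold or were measured in both stages, and the other scalings called 4 to 11. Cxcl13 (5.16) and Cxcl9 (at least 30.2-fold) were higher in the adult and Cx3cr1 in the fetus. Of 15 macrophage and Kupffer cell markers, 14 were higher in the adult (median 1.54). Vsig4 and Clec4f, markers of the resident Kupffer cell, differed by at least 468-fold and by 5.75, and Marco, at 6.26 and 6.37 against 5.40 and 5.37, fell just short of 2-fold (0.93). Under the other scalings 10 to 11 of the 15 were called.

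Stromal lists were divided. Of 25 collagen and matrix genes, 16 were higher in the fetus and 3 in the adult (median -1.80). Col1a1 read 5.29 and 5.25 against -0.43 and -0.45 (-5.71 ± 0.11), while Col5a3 was at least 139.6-fold higher in the adult. Stellate cell and fibroblast markers stood at 9 fetal and 4 adult of 16 (2 to 3 adult under the other scalings), with Acta2 at -3.66 and Rgs5 at 4.19. Of 14 endothelial markers, 7 were higher in the adult and 1, Lyve1 (-1.71), in the fetus, and the other scalings called 3 to 7 adult. Clec4g, a lectin of sinusoidal endothelium, differed by 5.07. Mesothelial markers were higher in the fetus in 7 of 9 cases, with Wt1 at least 31.7-fold. Cholangiocyte markers (2 adult, 3 fetal of 7) ranged from Prom1 (-4.26) to Spp1 (3.54). Of 21 Hox genes and cofactors, 17 were called fetal and 1 adult (Hoxa9, 1.08). Only 11 of the 17 reached a bound of 2-fold or were measured in both stages, with Hoxb2 at least 6.34-fold. Normexp background correction left 4 fetal calls and moved the list's median from -2.25 to -0.50.

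Markers of organs other than liver also differed between the samples. All 13 tested heart muscle genes were higher in the fetus (median -7.81), and 12 of them were above background on neither adult array. Actc1 read 6.89 and 6.87, Myl2, a ventricular light chain, was at least 490.1-fold higher and Nppa, an atrial hormone, at least 221-fold. The summed signal of the list, in units of each array's 75th percentile, was 466 and 467 on the fetal knockout arrays and 1.94 and 2.11 on the adult ones. The fetal wild-type arrays gave 202 and 204. The part that heart tissue had in other differences was not tested. Skeletal muscle genes were called fetal in 8 of 9 cases, 6 of them beyond a bound of 2-fold (5 to 8 called under the other scalings). All 9 were above background on neither adult array and entered the test through the fetal arrays alone, so the filter set their direction. The summed signal of the list, over 10 genes measured in any of the 4 groups, was 8.86 and 8.75 against 0.616 and 0.794. On the fetal wild-type arrays it was 14.4 and 14.4, higher than in the knockout fetus, unlike that of the heart list.

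The remaining cell type lists were small, and most but not all were dim. The summed signal of intestine and stomach was 97.4 and 98.6 in the knockout adult against 20.7 and 21.0 in the knockout fetus. That of epidermis was 53.5 and 53.8 against 12.9 and 12.8. Only 1 of the 6 tested epidermal members was called higher in the adult, however, and 4 in the fetus (median -1.57). The epidermal sum thus does not describe the list. Both sums cover the 9 genes of each list measured in any of the 4 groups. B cell (0 adult and 2 fetal of 4, 1 of them beyond its bound), T and NK cell (5 and 1 of 9) and dendritic cell markers (1 and 1 of 6) included Cd3d (at least 5.09-fold, adult), Vpreb1 (-2.39) and Clec9a (1.31). Lung (2 and 2 of 4, with 1 of the fetal calls beyond its bound) included Sftpc (at least 21.5-fold, fetal), epidermis (1 and 4 of 6) Krt5 (at least 16.1-fold, fetal) and intestine and stomach (4 and 1 of 8) Krt20 (-4.28). Pancreas (2 and 2 of 6) included Amy2a5 (5.95), kidney and adrenal (2 and 1 of 4) Nr5a1 (2.39) and Kap (at least 3.55-fold, adult), whose call was lost on leaving out any 1 knockout array, and neuron (3 and 4 of 8, none of the 4 beyond its bound) Syt1 (at least 26.5-fold, adult). The single tested placental gene, Gcm1, was higher in the adult (4.53), with probes from 1.31 to 5.18. Gcm1 read 7.22 and 7.35 in the adult against 2.57 and 2.94. Both tested adipocyte genes, Cfd (at least 21.0-fold) and Fabp4 (1.06), were higher in the adult.

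Whether the stage difference without Btg2 differs from that with it was tested as an interaction, the knockout difference minus the wild-type difference, over 14578 genes measured in any of the 4 groups. The stage differences of both genotypes correlated over the 14096 genes at r of 0.960 (Spearman's rho 0.938), as a description across genes. The interaction passed the call for 1423 genes, or 9.76% of those tested. For 879 (6.03%) the knockout difference was the higher and for 544 (3.73%) the lower. A fit restricted to the 10622 genes measured on every array called 696. Each genotype and stage is 1 RNA sample, so that the interaction can come from any of 4 samples.

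**Figure D4:**
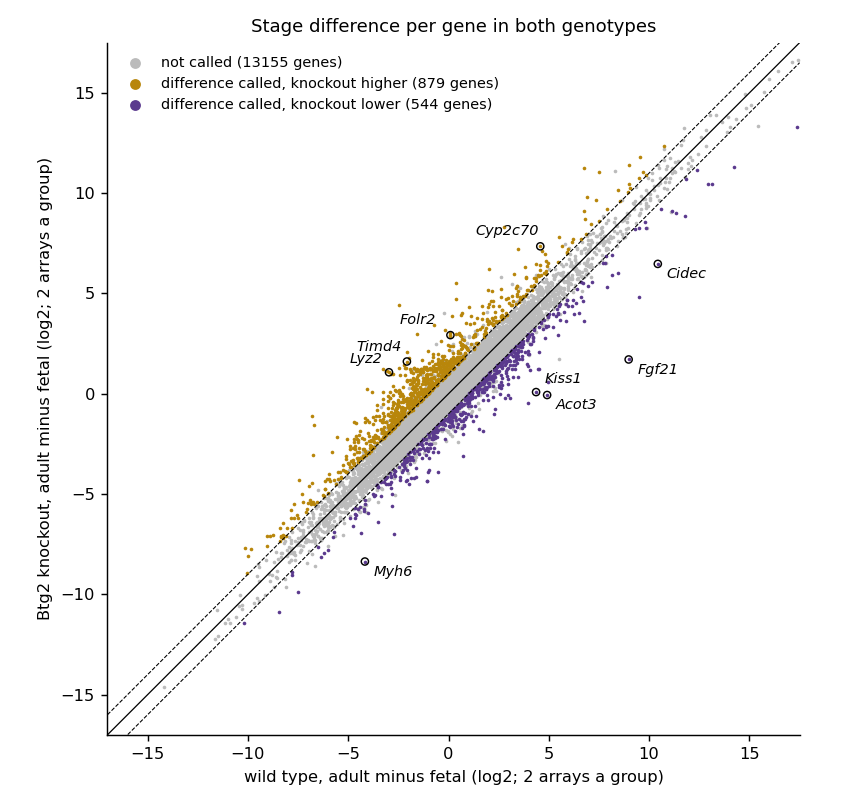
Adult minus fetal difference of each of 14578 genes in wild-type liver (x axis) and in Btg2-knockout liver (y axis), log2 with 2 arrays a group. The solid line marks equal differences and the dashed lines a 2-fold departure, and the 879 and 544 coloured genes passed the call for the difference between genotypes, with Lyz2 and Timd4 above the line and Acot3 and Fgf21 below it.

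Macrophage genes had a higher stage difference in the knockout. Of the 15 markers, 14 had a higher stage difference in the knockout, and 11 of the 12 that were above background on all 8 arrays. Their median stage difference was 1.54 in the knockout and -0.45 in the wild type. Lyz2, the lysozyme of macrophages, read 2.21 and 2.23 in the knockout adult, -2.11 and -2.31 in the wild-type adult, and 1.17 and 1.12 against 0.80 and 0.72 in the fetal samples, an interaction of 4.04 ± 0.11 (limma adjusted p = 7.5e-07). Adgre1, the F4/80 antigen, gave 3.02, Marco 3.09 and the complement genes C1qa and C1qb 3.13 and 3.01. The summed list signal was 417 and 424 in the knockout adult, 90.3 and 85.6 in the wild-type adult, 141 and 139.9 in the knockout fetus and 116 and 117 in the wild-type fetus. The adult arrays were thus the ones that parted. MHC class II genes (3 of 8 higher, none lower) included H2-Aa (1.82) and H2-DMa (2.53).

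Fatty acid oxidation genes went the other way. Of 54 tested, 20 had a lower stage difference in the knockout and none a higher one, with medians of 3.22 and 4.02 in knockout and wild type, and 17 of the 20 were above background on all 8 arrays. Acot3, a peroxisomal thioesterase, read -1.01 and -0.66 in the knockout adult, 4.28 and 4.20 in the wild-type adult and between -0.80 and -0.66 on the 4 fetal arrays, an interaction of -4.98 ± 0.15. Its stage difference was -0.06 ± 0.11 in the knockout and 4.92 in the wild type. Fgf21, a fasting hormone of the liver, was above background in the wild-type adult alone (2.30 and 2.23), so that its interaction of -7.27 rests on dim values in the other 3 groups. Cidec, a droplet protein above background in the adult samples alone, gave -3.96. Cyp4a31 gave -2.70, with stage differences of 10.44 and 13.14 in knockout and wild type. The integrated stress list had 7 of 28 lower (3 to 6 under the other scalings), with Asns at -2.56, and the glucocorticoid list 5 of 20, with Mt2 at -2.81 and Gadd45b at -3.09.

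Cholesterol genes had a higher stage difference in the knockout in 13 of 34 cases, lower in none, and all 13 were above background on all 8 arrays. Nsdhl read 1.75 and 1.78 in the knockout adult against -0.70 and -0.79 in the wild-type adult, with fetal values between 1.14 and 1.34, an interaction of 2.68 ± 0.07. Sqle gave 2.41. Division genes of G2/M were higher in 14 of 67 cases, but only 3 of these were above background on all 8 arrays. Mki67 read -0.39 and -0.52 in the knockout adult and -2.35 and -2.73 in the wild-type adult, where 1 array was above background. The normexp correction took the G2/M calls to 0.

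Other departures lay wholly or partly in the fetal samples. Of 13 heart genes, 10 had a lower stage difference in the knockout, 1 of them above background on all 8 arrays and 6 to 12 called under the other scalings, and the summed signal given above differed between the fetal pools. Myh6 gave -4.20 ± 0.64 and Myl3 -2.46. Their means were 4.16 and 5.92 in the knockout fetus against 1.56 and 4.93 in the wild-type fetus. In the adult they were -4.20 and -4.98 in the knockout against -2.61 and -3.51 in the wild type. Of these adult values only Myh6 on 1 wild-type array was above background. Dim adult values thus make up part of both interactions. Cxcl14, a chemokine of epithelia, read -0.92 and -0.92 in the knockout fetus and 2.47 and 2.46 in the wild-type fetus, an interaction of 3.89 ± 0.13. The epidermal keratins Krt14 (2.57) and Krt1 (3.74) likewise were lower in the knockout fetal pool than in the wild-type pool, at means of -0.89 and -5.76 against 1.41 and -1.81, and Krt1 was above background in the wild-type fetus alone. The share that tissue carried along in the pools had in these values was not tested.

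**Figure D5:**
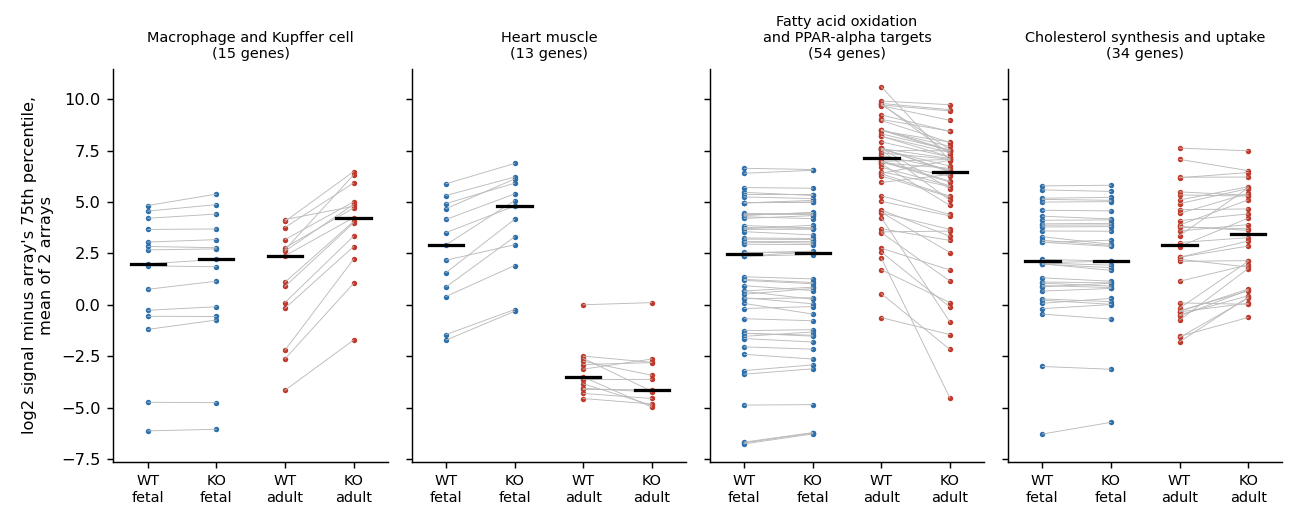
Mean level (log2 signal minus the array's 75th percentile, 2 arrays a group) of the members of 4 lists in the 4 samples, with grey lines joining a gene between genotypes of 1 stage and black bars at the median. Macrophage and cholesterol medians are higher, and the fatty acid oxidation median lower, in the knockout than in the wild-type adult, and the heart median is higher in the knockout than in the wild-type fetus.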

How the data were processed

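Scanner output of single-colour Agilent arrays was used. Per the file headers, the authors' scanner files were made with Feature Extraction 10.7.3.1 from 1 slide read in 1 scan, and hold the processed signal as an intensity on a linear scale after background subtraction, with quality flags per spot. The authors' deposited value table holds intensities with column medians of 18.1 on a positive, linear scale. Genes were not centred, and the step that equalised the columns stays unknown. It served as an alternative.

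Control spots and outlier-flagged spots were left out, log2 processed signal minus each array's 75th percentile was taken, and spots of a probe were averaged. Probes were named through accessions of the RefSeq table of GRCm38.p6 (26756 of 55681 probes matched). A gene was represented by its brightest probe, averaged over all arrays. Probes of 616 tested genes differed in sign, 130 of them called. All 8 arrays were fitted as 4 groups with limma 3.58.1 (lmFit, eBayes with an intensity trend) in R 4.3.3, with Benjamini-Hochberg adjustment over all tested genes. The number of arrays, 2 a group, limits the precision. The procedure was checked on simulated data.

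Array numbers were the row of the slide, not animals, so they were not taken to pair samples. Btg2 was named first. For each direction of the stage difference, 12 genes with the largest values among those measured at both stages were added. So were the 8 genes with the highest bounds per direction. Each list gave up to 4 called members with the largest differences. For the interaction, the 10 largest values per direction among genes above background on all 8 arrays were named. Lists with a large share of interaction calls also gave their called members with the largest values. Those lists and members were thus picked by the interaction values themselves. Further list members that failed the call or went against their list were named after their values were seen. The members and lists were chosen with earlier results of these data known. Tried as alternatives were other scalings and background corrections, other filters, call rules and probe summaries, a block for the array number, a fit of 4 arrays and leaving out each array.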

Additional observations from a re-analysis of the deposited data

Results flagged for a closer look

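The stage difference differed between knockout and wild type at 1423 genes by the interaction test of limma's fit (adjusted p under 0.05 and at least 2-fold), and the named genes among them are given here as the knockout minus the wild-type stage difference on the log2 scale. The genotypes are single RNA samples at each stage, so the test covers array error alone. No group had the 4 samples that a search for outlying samples needs.

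Above background on all 8 arrays, the stage difference was higher in the knockout for Adgre1 3.02, C1qa 3.13, C1qb 3.01, Cd14 2.42, Cd300e 3.38, Clec1b 1.50, Col3a1 1.50, Cxcl13 3.19, Cxcl14 3.89, Cyp2c70 2.77, Folr2 2.83, Gsta4 1.78, H2-Aa 1.82, Lyz2 4.04, Marco 3.09, Nsdhl 2.68, Rgs5 1.55, Spp1 2.26 and Sqle 2.41. It was lower in the knockout for 2210417A02Rik -3.26, Acot3 -4.98, Asns -2.56, Cgref1 -2.72, Csrp3 -2.99, Cyp4a31 -2.70, Gadd45b -3.09, Kiss1 -4.28, Lamb3 -2.90, Mt2 -2.81 and Phlda3 -2.78.

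The values of the remaining named genes rest on at least 1 group with an array not above background. They were higher for Gsta1 2.37, H2-DMa 2.53, Krt1 3.74, Krt14 2.57, Krt20 3.15, Mest 1.22, Myod1 1.93, Myog 1.49, Prom1 1.69, Sftpd 3.36, Timd4 3.68 and Vil1 2.73, and lower for Cidea -4.40, Cidec -3.96, Fgf21 -7.27, Fgl1 -2.94, Gp6 -2.87, Gpc3 -1.73, Mcpt8 -3.27, Myh6 -4.20, Myl3 -2.46, Prss34 -1.57 and Sftpc -2.87.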

How the results depend on the processing

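The knockout stage calls numbered 7534 to 7563 on leaving out 1 array at a time, and 7625 with the array number as a replicate block. That number marks the slide row and no shared animal, so the block is no pairing of samples. Without a filter on dim probes 20280 genes were tested, with 6775 called higher in the adult and 4006 in the fetus. With probes above background on every array 11151 were tested, with 3182 and 2270 called. The set of genes tested changes between these filters. The Btg2 probe, dark on all 4 knockout arrays, still read -4.77 and -4.40 in the adult against -5.94 and -5.76 in the fetus. Calls among probes dim in both groups thus need not be differences in expression. The part of the scaling in them was not tested. Counting a dim gene only where its bound reached 2-fold, a rule chosen after seeing the data, gave 6985 calls.

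The interaction depended more on the processing. It numbered 1420 with the replicate block and 1317 to 1732 on leaving out 1 array, with 814 to 968 higher in the knockout and 493 to 764 lower; the highest count came without the first wild-type adult array. With normexp background correction it gave 472 calls (254 higher, 218 lower), and the cause was not tested. Restricted to genes above background on every array it gave 696 (370 higher, 326 lower). The lower calls fell to 314 under median scaling and 337 under scaling on detected probes, and the cause was not tested. The call rule of non-overlapping arrays was not run for the interaction. No named gene's call turned its direction in the alternatives run. Among all genes, opposite calls numbered 1 without a filter and 4 when probes were averaged for the stage difference, and 1 each with normexp and with averaged probes for the interaction. Of the named genes, 11 lost their stage call and 11 their interaction call under normexp. Leaving out any 1 knockout array ended the stage call of Kap and leaving out the first adult one that of Flt3. Leaving out single arrays ended the interaction call of 2210417A02Rik, Mcpt8, Prss34 and Gpc3, whose levels in some group are dim or differ between duplicates. The dimmest measurable level limits every "at least" value, and more so in the adult arrays.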
